A study of Mus musculus with 4 samples.

Results

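The regions described here are the promoters of mouse zinc finger protein (Zfp) genes, measured by ATAC-seq in mesenchymal stem cells (MSCs) of old and young mice. Members were the autosomal peaks no further than 1 kb from a protein-coding transcript start of a gene whose symbol is Zfp followed by digits in GENCODE vM21, without Zfp423. They numbered 339 of the 117282 peaks and belonged to 314 of 357 such genes. Of these peaks, 323 lay over an annotated start and 16 beside one, and 35 were also within reach of a start of a gene outside the family. A gene was called clustered when another Zfp gene lay within 100 kb and isolated when none did, which gave 193 clustered and 146 isolated promoter peaks.

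Most mouse Zfp genes encode proteins with arrays of C2H2 zinc fingers, each finger holding a zinc ion and contacting a few bases of DNA. A large share also carry a KRAB domain, which recruits the co-repressor Trim28 and through it the histone methyltransferase Setdb1 and HP1 proteins, and many of these silence transposable elements. KRAB zinc finger genes arose largely by tandem duplication and therefore lie in clusters of similar neighbours, while other Zfp genes encode RNA-binding proteins or general transcription factors.

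The 2 old samples came from mice between 18 and 22 months of age and the 2 young samples from mice between 3 and 5 months. All 4 were MSC cultures grown only at 2% O2 in serum-containing medium, with no other treatment named in the labels. The study's methods describe isolation of such cells from limb bones of C57BL/6N mice. The labels do not say whether the samples of a group came from separate animals, so p-values measure the spread between these samples, which may be technical. ATAC-seq marks open chromatin by the fragments that a transposase cuts out of it. In these bulk samples, more cells with an open promoter and a more open promoter per cell cannot be told apart.

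Under an assumed scale of the deposited values, library totals came to between 28259470 and 32559794 counts. Across the samples, 3 counts in a peak corresponded to deposited values between 0.921 and 1.06. The deposited value of a peak is a count scaled per sample that was not divided by peak width. For comparisons between ages it was divided by a relative log expression (RLE) factor, the median over peaks of the ratio between a sample and the geometric mean across the 4, and is called the scaled value. Levels are compared between genes only as the deposited value per kb of peak. Promoter peaks were found at 8 of 8 MSC marker genes such as Pdgfra and Ly6a, at 0 of 5 blood marker genes such as Ptprc and at 1 of 2 endothelial marker genes. The mitochondrial share of summed values was 6.52% in old replicate 2 and between 13.5% and 15.7% in the other samples, and peaks of chromosome 11 stood higher in old replicate 2 than elsewhere. The part of the mitochondrial share in the results was not tested. With chromosome 11 left out of the medians, the median log2 fold change of Zfp peaks, old minus young, was -0.125, against -0.128 with it. The Zfp median minus that of other promoters was -0.099, against -0.108 with it.

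The promoters of 4 clustered and 3 isolated genes are shown as the stretch of 200 bases before the most upstream protein-coding start in the peak, 5′ to 3′ on the gene's strand, read from the GRCm38 assembly (mm10). They are the clustered genes Zfp811, Zfp954, Zfp933 and Zfp78 and the isolated genes Zfp512, Zfp367 and Zfp395, which are among the peaks with the lowest p of their class and which differ in CpG content. Capitals mark matches, on either strand, to any of 9 short motifs: CCGGAAG (ETS factors), GCATGCGC (NRF1), AAGATGG (YY1), ACTACAA (a piece of the Zfp143 site), TGACGTCA (cyclic AMP response element), the CCAAT box by its letters, GGGCGG (GC box), the letters TATAAA for the TATA box, and the palindrome CTCGCGAG. None of the 9 contains another.
Zfp811 (chr17:32809932-32810131, minus strand): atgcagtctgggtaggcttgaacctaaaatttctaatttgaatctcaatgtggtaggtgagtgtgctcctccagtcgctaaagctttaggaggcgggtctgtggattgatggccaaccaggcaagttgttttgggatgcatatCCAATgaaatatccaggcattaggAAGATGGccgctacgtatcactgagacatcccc
Zfp954 (chr7:7121489-7121688, minus strand): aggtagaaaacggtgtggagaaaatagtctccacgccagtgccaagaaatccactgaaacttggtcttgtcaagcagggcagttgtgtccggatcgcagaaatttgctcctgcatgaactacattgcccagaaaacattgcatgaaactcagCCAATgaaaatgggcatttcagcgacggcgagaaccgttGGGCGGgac
Zfp933 (chr4:147848367-147848566, minus strand): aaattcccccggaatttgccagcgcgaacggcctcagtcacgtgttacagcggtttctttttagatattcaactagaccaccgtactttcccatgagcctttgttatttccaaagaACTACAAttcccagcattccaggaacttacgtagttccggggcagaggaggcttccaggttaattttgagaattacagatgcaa
Zfp78 (chr7:6363080-6363279, plus strand): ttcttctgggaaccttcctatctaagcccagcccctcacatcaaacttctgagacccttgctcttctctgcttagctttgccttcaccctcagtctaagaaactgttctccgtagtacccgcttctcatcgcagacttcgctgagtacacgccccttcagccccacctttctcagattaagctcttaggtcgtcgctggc
Zfp512 (chr5:31452231-31452430, plus strand): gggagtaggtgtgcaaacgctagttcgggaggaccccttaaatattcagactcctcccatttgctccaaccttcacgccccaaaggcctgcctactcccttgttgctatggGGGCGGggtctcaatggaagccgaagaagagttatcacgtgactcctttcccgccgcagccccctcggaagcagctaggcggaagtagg
Zfp367 (chr13:64153203-64153402, minus strand): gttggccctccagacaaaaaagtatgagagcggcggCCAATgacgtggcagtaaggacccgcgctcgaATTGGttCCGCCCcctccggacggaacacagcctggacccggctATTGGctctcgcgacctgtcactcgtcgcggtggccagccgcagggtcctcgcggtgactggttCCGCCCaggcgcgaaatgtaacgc
Zfp395 (chr14:65375193-65375392, plus strand): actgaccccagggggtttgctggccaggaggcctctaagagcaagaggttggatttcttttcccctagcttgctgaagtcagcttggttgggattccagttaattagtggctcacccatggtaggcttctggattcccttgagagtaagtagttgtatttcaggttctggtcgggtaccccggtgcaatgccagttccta

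The Zfp811 stretch held 4 CpG dinucleotides, a CCAAT box and an AAGATGG match. The Zfp954 stretch held 9 CpG with a CCAAT box and a GC box, and that of Zfp933 held 9 CpG with an ACTACAA match. No listed motif occurred in the Zfp78 or Zfp395 stretch, with 7 and 2 CpG. The Zfp395 start shown is an internal one. Another Zfp395 peak of 5700 bp lay at the upstream starts of this gene. It was not among the isolated peaks with the lowest p, so the Zfp395 values given below are those of the internal start only. The isolated Zfp367 promoter was the most CpG-rich of those shown, with 22 CpG, 3 CCAAT matches and 2 GC boxes. The stretches of Zfp512 and Zfp367 overlapped exons of the neighbouring annotated genes 4930478M09Rik and Gm47513.

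Across the family, promoter sequence differed between clustered and isolated genes. In the 300 bases from 250 before to 50 after the start nearest the peak centre, the median number of CpG was 13 in the 185 clustered genes, 21 in the 129 isolated genes and 20 in the 14573 other autosomal genes with a promoter peak. The median GC content was 54.3%, 61.3% and 61.0% in the same order. A GC box was found in 35.7% of clustered, 54.3% of isolated and 60.4% of other windows, and in 8931 of all 14887. The ETS motif was found in 23.2% of Zfp windows and 14.8% of other windows (2237 of all 14887), and ACTACAA in 7.96% and 3.40% (521 of all). A CCAAT box was found in 51.7% of the windows of genes with a KRAB match, in 31.0% of those without and in 35.3% of all. The median log2 change with age, old minus young, was -0.17 for the 127 windows with a CCAAT box and -0.098 for the other 187, and -0.12 for the 136 windows with a GC box and -0.14 for the other 178. It was -0.15 for the 73 windows with the ETS motif and -0.12 for the other 241, and -0.20 for the 25 windows with ACTACAA and -0.12 for the other 289. These medians by motif were not tested over samples. A match is a string of letters and does not show that the factor binds.

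The proteins were described from the coding sequences of GENCODE vM21, translated on GRCm38. The C2H2 finger pattern was matched in all but 12 of the 357 genes, with a median of 10 fingers, and a KRAB-type pattern was matched in 174. It was found in 63.2% of the 204 clustered genes and in 29.4% of the 153 isolated genes. A promoter peak was present at 185 of the clustered genes (90.7%) and at 129 of the isolated genes (84.3%). The 43 genes without one included 31 with a KRAB match and 18 of the 30 Zfp genes of chromosome 4, among them Zfp600, Zfp978, Zfp982 and Zfp993. Zfp42 (Rex1), a marker of pluripotent cells, and the KRAB gene Zfp932 also had none. Values of genes with near-identical copies are uncertain, since the authors' counting could divide or drop reads that match several copies.

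Zfp promoters were open at a higher level than other promoters. The median deposited value per kb over the 339 peaks was 31.1 and 39.5 in the old samples and 45.2 and 46.6 in the young samples. On the log2 scale of value per kb plus 1, the Zfp median stood above the median of the 15383 other autosomal promoter peaks by 0.59 and 0.46 in the old samples and by 0.62 in both young samples. It was above in 4 of 4 samples, each a comparison within 1 library. The most open per kb were Zfp788 (184), Zfp317 (155) and Zfp78 (148), as means over the samples. The least open were a peak of 100 bp at Zfp811 (3.28), a peak of 200 bp at Zfp456 (3.44) and a peak of 200 bp at Zfp954 (3.85), which held between 0 and 5 counts in every sample.

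Clustered promoters stood above isolated ones in log2 value per kb by 0.23 in both young samples and by 0.11 in old replicate 1, while the difference was -0.013 in old replicate 2. Both old samples thus had a smaller difference than either young sample, with an average of -0.18 for old minus young. The exact two-sided permutation test gave p = 0.33, which is the smallest that 2 samples against 2 allow. Clustered peaks were also narrower, with a median width of 2100 bp against 2650 bp. Not divided by width, the median deposited values of clustered peaks were below those of isolated ones in 4 of 4 samples. They were 71.3 and 90.3 against 100 and 125 in old, and 101 and 110 against 146 and 150 in young. The order of the classes by level thus depends on dividing by width.

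To ask how the family changed with age, each peak was tested with limma on log2(scaled value + 1), with Benjamini-Hochberg adjustment over all 117282 peaks. At an adjusted p under 0.01, limma called 0 Zfp promoter peaks lower and 0 higher in old MSCs, against a background of 0.0307% of all peaks called lower and 0.0256% called higher. At an unadjusted p under 0.05, 35 Zfp peaks passed, 31 of them lower and 4 higher in old. That is 10.3% of the members, while 16.4% of all peaks passed at the same limit. Of all 117282 peaks, 10403 passed lower and 8790 higher in old. Set against all peaks, the family thus had few peaks passing as higher, rather than many passing as lower. Few passed as higher among other promoters of similar level too. Of 5616 such peaks at 28.4 to 58.7 per kb, 228 passed lower and 38 higher. The limma-voom fit on recovered counts called 0 Zfp peaks in either direction. Without old replicate 1, limma called 39 Zfp peaks lower and 16 higher (5.52% and 3.31% of all peaks), and without old replicate 2 it called 5 lower (1.47% of members, 1.00% of all peaks) and 0 higher (0.428% of all peaks). The tested fold changes were small, and 3 of the 339 exceeded 1 on the log2 scale in either direction, 2 of these in peaks of 200 bp with few counts.

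The direction was uneven. Of the 339 peaks, 245 (72.3%) had a fold change below 0, and the median was -0.13 on the log2 scale, old minus young. Both old values lay under both young values at 133 peaks (39.2%, background 24.2%) and above them at 27 (7.97%, background 23.2%). Among the other promoter peaks, the median was -0.020, with 24.9% of them lower and 16.2% higher in this sense. Of these, 5616 had levels from the lower to the upper quartile of Zfp levels (28.4 to 58.7 per kb). Among them 29.1% were lower and 6.34% higher. The small share of higher Zfp peaks was thus near that of other promoters at such levels. The share of lower peaks was larger in the family, but the Zfp shares cover all 339 peaks, also those outside these levels. Within each of 5 bins of value per kb, the lower share was larger in the family. In the highest bin it was 57.4% of 122 Zfp peaks and 48.2% of other promoters. On the values as deposited, without RLE factors, the median was -0.41 for the Zfp peaks and 94.1% were lower, in a table where the median of all peaks moved below 0 as well (-0.27). The changes given here are relative to that shift.

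The peak with the lowest p was that of Zfp811 on chr17:32809001-32810300, the promoter of a KRAB gene with 13 fingers. Its scaled values were 42.4 and 22.1 in the old samples and 61.7 and 75.6 in the young samples. Both old values were under both young values, and the old samples lay about as far from each other as from the nearer young sample. The log2 fold change was -1.13 (SE 0.26), with a limma adjusted p of 0.0415, the 1 Zfp peak under 0.05 (background 0.771%). It was -1.59 without old replicate 1 and -0.67 without old replicate 2. The peak next to it, of 200 bp, held 1 and 2 counts in old and 13 and 11 in young, and a further peak of 100 bp held 2 and 2 counts in old and 0 in both young samples. These neighbours are read as counts only, since a fitted fold change at such counts depends on the pseudocount.

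The other clustered peaks with the lowest p were at KRAB genes as well, and all were lower in old. Of all 193 clustered peaks, 118 were at genes with a KRAB match, and 79.8% had a fold change below 0. Zfp954 on chromosome 7 had scaled values of 231 and 212 in old and 308 and 307 in young, a log2 fold change of -0.47 (SE 0.13, limma adjusted p = 0.0829). Zfp78, among the most open of the family, had 545 and 392 in old and 609 and 610 in young (-0.40, SE 0.13, adjusted p = 0.146). In both genes the young samples lay close together and above both old samples. Zfp933 had 53.1 and 45.2 in old and 73.6 and 72.6 in young, and Zfp820 had 73.6 and 48.5 in old and 90.1 and 91.5 in young. Their log2 fold changes were -0.57 (SE 0.20) and -0.59 (SE 0.21), and neither passed, with limma adjusted p of 0.150 and 0.154. Without old replicate 2 the log2 difference was -0.15 at Zfp78 and -0.29 at Zfp820. Without old replicate 1 it was -0.64 at Zfp78 and -0.89 at Zfp820.

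Among isolated genes, the lowest p belonged to Zfp512, with scaled values of 65.1 and 66.4 in old and 88.8 and 100.7 in young. The 2 old samples were alike and below both young ones, and the log2 fold change was -0.52 (SE 0.18, limma adjusted p = 0.158). Zfp395, at the internal start shown above, stood the other way, with 116 and 164 in old against 99.0 and 101 in young (0.46, SE 0.18, adjusted p = 0.215). Zfp367 had 349 and 297 in old and 413 and 392 in young, a log2 difference of -0.32. The KRAB genes Zfp386, Zfp558 and Zfp788 had log2 differences of -0.33, -0.41 and -0.27. At each, both old samples lay below both young ones, as at 24.2% of all peaks. None of these isolated peaks passed the test. Without old replicate 2 the log2 difference was 0.22 at Zfp395, -0.19 at Zfp367, -0.19 at Zfp386 and -0.20 at Zfp558. Without old replicate 1 it was 0.70 at Zfp395, -0.44 at Zfp367, -0.45 at Zfp386 and -0.61 at Zfp558.

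**Figure D1:**
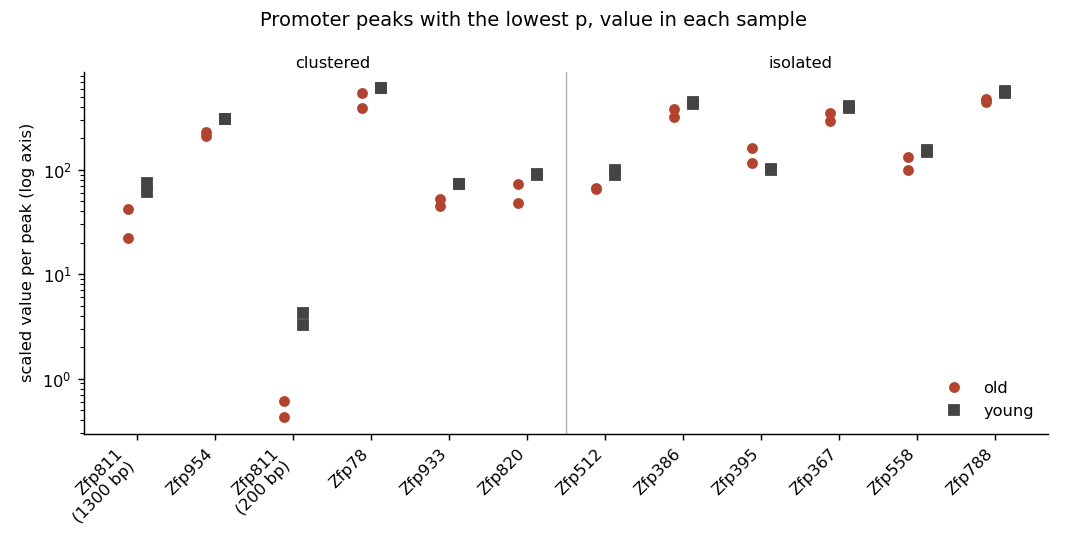
Scaled value (log axis) of the 6 clustered and 6 isolated promoter peaks with the lowest p, with circles for the 2 old and squares for the 2 young samples. At every peak shown except Zfp395 both old samples lie below both young samples, and at Zfp395 both lie above. The peaks were chosen by p in these same samples, which favours such separation. Of all peaks, 24.2% were lower and 23.2% higher in this sense.

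Class by class, the medians over all 4 samples were below 0 in clustered and isolated genes and in genes with and without a KRAB match. The median log2 fold change was -0.15 over the 193 clustered peaks, of which 154 were lower (79.8%), and -0.10 over the 146 isolated peaks, of which 91 were lower (62.3%). Both old samples were below both young ones at 84 clustered peaks (43.5%) and at 49 isolated peaks (33.6%), and above them at 8 (4.15%) and 19 (13.0%). Of all peaks, 24.2% were lower and 23.2% higher in this sense. The median was -0.16 over the 150 peaks of genes with a KRAB match and -0.10 over the 189 without.

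When both properties were crossed, the median of isolated genes without a KRAB match lay nearest 0. Their 114 peaks had a median of -0.077, with 34 lower (29.8%) and 17 higher (14.9%) at non-overlapping values, beside 24.9% and 16.2% of other promoters. Paired sample by sample, their median was -0.12 and -0.072 with old replicate 1 but 0.022 and 0.043 with old replicate 2. The 118 clustered KRAB peaks had -0.15, the 75 clustered peaks without a KRAB match -0.16, and the 32 isolated KRAB peaks -0.18. The 56 promoter peaks of KRAB zinc finger genes that are not named Zfp had a median of -0.24. Of them, 57.1% had both old samples below both young ones, beside 24.2% of all peaks. By contrast, the 160 promoter peaks near the clusters that belonged to no zinc finger gene had a median of -0.034.

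**Figure D2:**
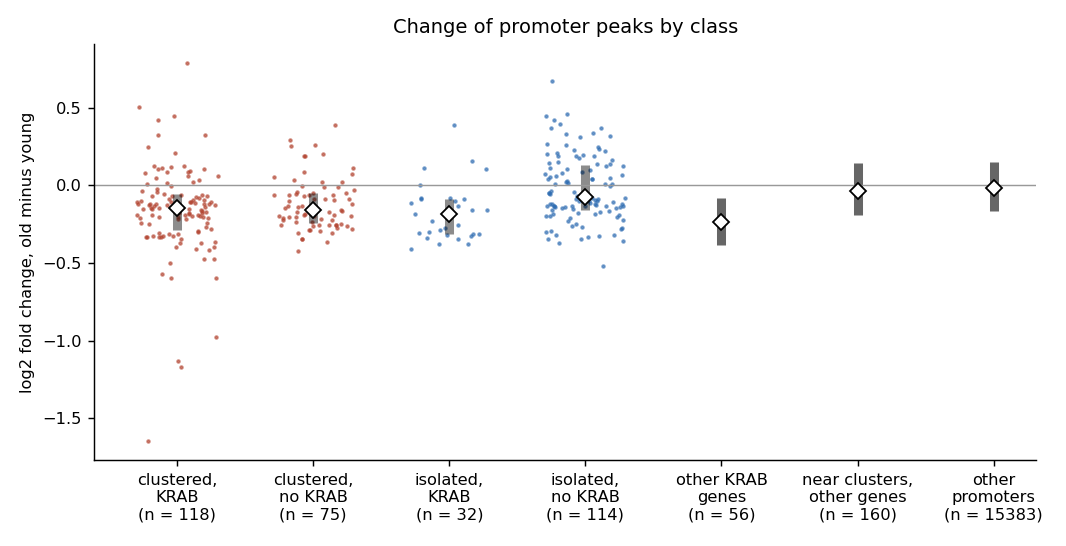
Log2 fold change (old minus young) of each Zfp promoter peak by class, and summaries of 3 comparison sets, with diamonds for medians and bars from the lower to the upper quartile. The medians of the clustered and KRAB classes lie between -0.15 and -0.18, that of isolated genes without a KRAB match at -0.077 and that of other promoters at -0.020.

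These differences between classes rested on unequal samples. Paired sample by sample, the median log2 difference of clustered peaks was -0.12 for old replicate 1 against either young sample and -0.21 for old replicate 2 against either. For isolated peaks it was -0.12 and -0.079 with old replicate 1, and -0.045 and -0.046 with old replicate 2. For other promoters it was -0.10 and -0.051 with old replicate 1, and 0.0047 and 0.070 with old replicate 2. Clustered peaks were thus lower than other promoters in all 4 pairs, by least in old replicate 1 against young replicate 1.

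The median log2 fold change of clustered minus isolated peaks was -0.048 over all 4 samples, -0.16 without old replicate 1 and -0.028 without old replicate 2. After correction for GC content and width of the peaks it was -0.0034. Sample by sample, the difference between the medians of clustered and isolated peaks, each peak centred on its mean, was -0.0024 and -0.12 in the old samples and 0.030 and 0.036 in the young samples. The old samples were both below the young ones, and the exact permutation test gave p = 0.33, the smallest possible.

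The Zfp median minus that of other promoters was -0.11 with all samples, -0.21 without old replicate 1 and -0.041 without old replicate 2. Its centred values were 0.010 and -0.14 in the old samples and 0.027 and 0.077 in the young samples, with an exact permutation p of 0.33. Genes with a KRAB match minus those without gave -0.055, and -0.17 without old replicate 1 but -0.0052 without old replicate 2 (exact permutation p = 0.67). In each of these 3 contrasts the old samples lay further from each other than the mean of the old lay from the mean of the young.

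**Figure D3:**
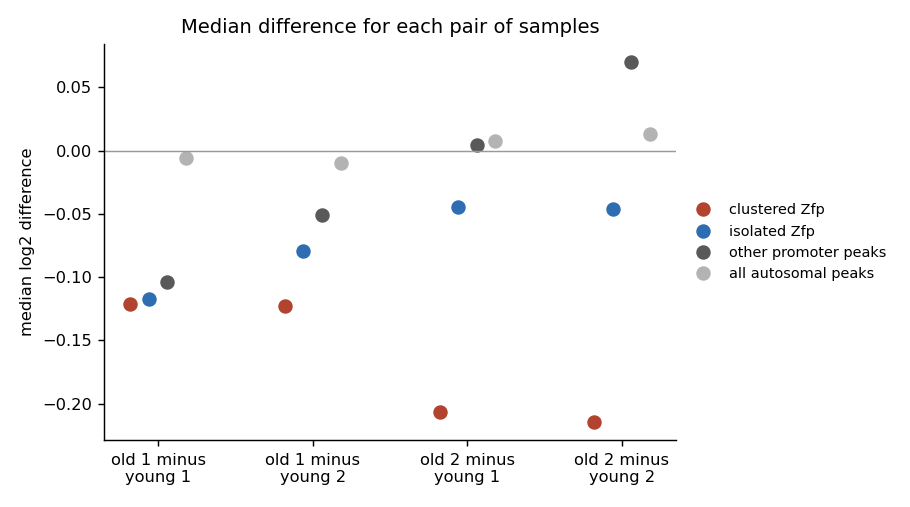
Median log2 difference of scaled values for each old sample against each young sample, in clustered and isolated Zfp promoter peaks, other promoter peaks and all autosomal peaks. Clustered peaks lie between -0.12 and -0.21 in the 4 pairs, and the distance to other promoters is widest in the 2 pairs with old replicate 2.

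Levels and base composition moved with the change. Promoter peaks were divided into 5 equal bins by mean deposited value per kb. From the lowest to the highest bin, the median log2 fold change was 0.057, 0.037, -0.058, -0.12 and -0.18 for Zfp peaks, and 0.14, 0.057, 0.013, -0.053 and -0.13 for other promoters. The Zfp median was the lower one in all 5 bins. The lowest bin held 20 Zfp peaks and the highest held 122, so the family was weighted to the levels at which promoters as a whole were lower in old. Other promoters within the middle 50% of Zfp levels (28.4 to 58.7 per kb, 5616 peaks) had a median of -0.056. The median of all Zfp peaks minus theirs was -0.072, with an exact permutation p of 0.67. The Zfp peaks were not limited to these levels, so level was not fully matched.

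**Figure D4:**
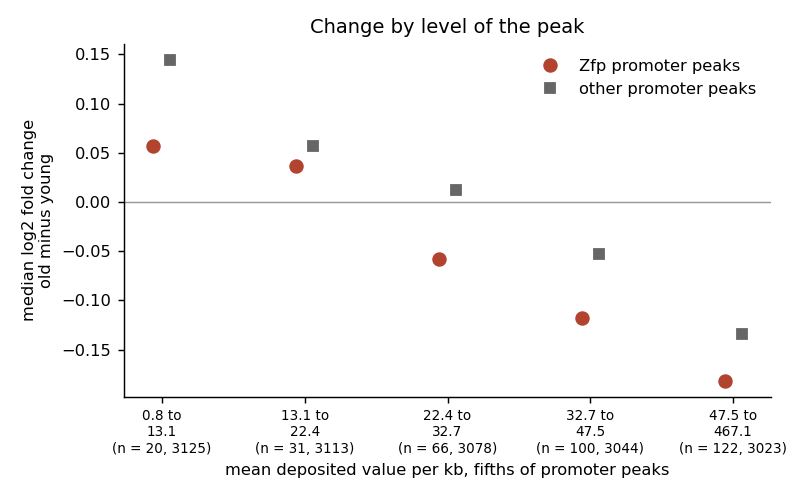
Median log2 fold change (old minus young) in 5 bins of mean deposited value per kb, for Zfp promoter peaks and other promoter peaks, with the numbers of peaks under each bin. Both sets go from above 0 in the lowest bin to below 0 in the highest, and the Zfp point is lower in every bin.

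By CpG content the family and the other promoters ran in opposite orders. The 113 Zfp peaks with the lowest ratio of observed to expected CpG had a median log2 fold change of -0.16, the middle 113 had -0.13 and the highest 113 had -0.095. Other promoter peaks divided at the same ratios (0.408 and 0.538) had medians of 0.044, -0.033 and -0.058. The distance between the family and other promoters was thus widest among CpG-poor peaks. This was described after the values were seen and was not tested over samples. By number of fingers, the medians were -0.095 for up to 5 C2H2 matches (69 peaks), -0.12 for 6 to 10 (112 peaks) and -0.14 for 11 or more (158 peaks).

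Zfp clusters on the same chromosomes differed in the size and direction of their medians. A promoter peak was present in 45 clusters, and 26 clusters held at least 3. Of these 26, 21 had a median below 0, and medians among the 26 ranged from -0.42 to 0.19. In 16 of the 26 the median was below 0 in all 4 pairs of an old with a young sample. The cluster with most peaks spans 515 kb of chromosome 13 from Zfp712 to Zfp748, with 14 genes and 16 peaks. Its median was -0.28, 15 peaks were below 0 and 10 had both old samples below both young ones (62.5%, beside 24.2% of all peaks). Its lowest value was at Zfp458 (-0.59) and its highest at Zfp459 (0.33), with scaled values of 4.71 and 4.25 in old against 6.60 and 7.97 in young for Zfp458, and 19.3 and 17.6 against 16.5 and 12.7 for Zfp459. The ages did not overlap at either gene, and neither passed the test.

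On chromosome 17, the cluster from Zfp677 to Zfp994 (15 genes, 14 peaks) had a median of -0.14, from -0.59 at Zfp820 to 0.062 at Zfp947, and 13 of its peaks were below 0. Its median was 0.030 and -0.043 for old replicate 1 against the young samples and -0.30 and -0.35 for old replicate 2. Of the 14 peaks, 4 had both old samples below both young ones (28.6%, beside 24.2% of all peaks). The cluster from Zfp871 to Zfp563 (8 genes, 11 peaks), which holds Zfp811, had a median of -0.31. In it, 8 peaks had non-overlapping lower values (72.7%, beside 24.2% of all peaks). On chromosome 7, the cluster from Zfp84 to Zfp146 (15 genes, 14 peaks) had a median of -0.10, from -0.41 at Zfp940 to 0.29 at Zfp420. Here the pairs with old replicate 1 gave -0.29 and -0.30, and those with old replicate 2 gave 0.021 and -0.000070. All 10 peaks of the cluster from Zfp180 to Zfp94 were below 0, between -0.36 at Zfp112 and -0.060 at Zfp94.

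The lowest median among clusters with at least 3 peaks belonged to the short cluster from Zfp954 to Zfp772, also on chromosome 7. All 6 of its peaks had both old samples below both young ones, beside 24.2% of all peaks. Of these 6, 2 were 200 bp wide with 8 counts or fewer in every sample. On the same chromosome, the cluster from Zfp553 to Zfp689 had a median of 0.19 and 6 of 7 peaks above 0. Its direction turned between the old samples, with -0.11 and -0.19 for old replicate 1 and 0.61 and 0.40 for old replicate 2. Both old samples lay above both young ones at 1 of the 7 peaks, beside 23.2% of all peaks. Neighbouring peaks share their surroundings and are not independent, so no test was made over the peaks of a cluster.

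**Figure D5:**
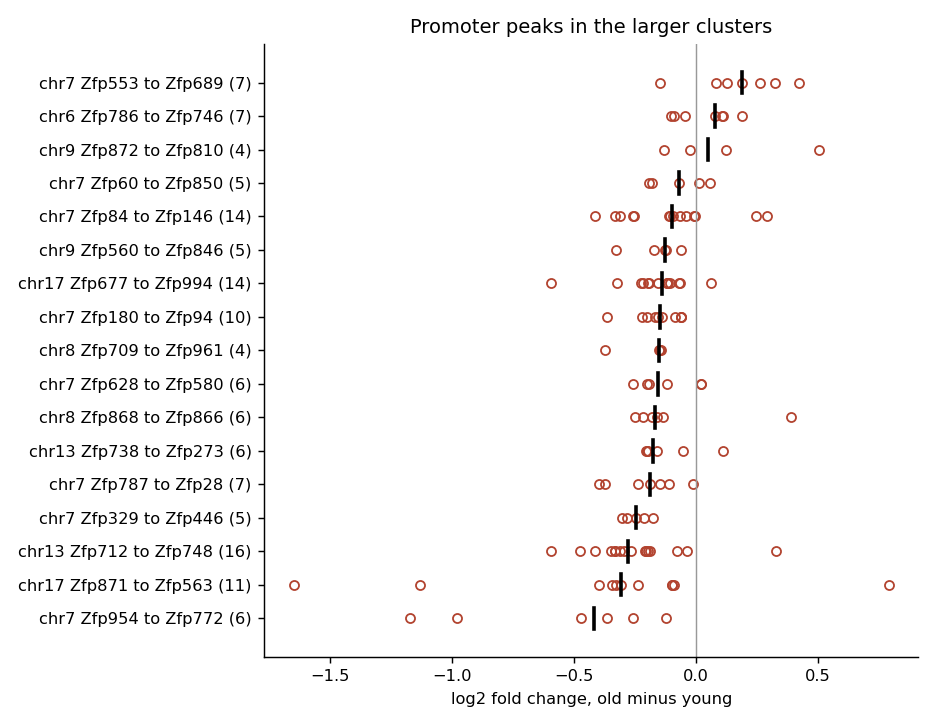
Log2 fold change (old minus young) of each promoter peak in the 17 clusters with at least 4 peaks, ordered by median (black line), with the number of peaks in brackets. Medians are below 0 in 14 of the 17 clusters and lowest, at -0.42, in the cluster from Zfp954 to Zfp772.

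Zfp genes with known roles outside transposon silencing were mostly isolated. More of those listed had log2 differences above 0 than below on the scaled values. Most of them changed sign on the values as deposited or without 1 sample. Zfp467, which favours fat over bone cell formation in MSCs, had scaled values of 186 and 130 in old and 187 and 173 in young (-0.21, SE 0.17, limma adjusted p = 0.581). Zfp521, a regulator of the same choice of fate, had 172 and 206 in old and 196 and 195 in young (-0.056, adjusted p = 0.891). The ages overlapped at both genes, with old replicate 2 lowest at Zfp467 and highest at Zfp521. Zfp36, whose product tristetraprolin binds and destabilizes mRNA, lay in a peak of 37100 bp shared with Plekhg2 and Rps16, with a log2 difference of 0.025.

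The 2 peaks of Zfp148, a GC-box-binding factor, had log2 differences of 0.34 and 0.23, and the wider of them had scaled values of 63.4 and 77.7 in old against 56.4 and 54.0 in young. Those did not overlap and did not pass (limma adjusted p = 0.406). Zfp143, an activator of many promoters, had a log2 difference of 0.11, with old values of 238 and 329 on either side of the young values of 240 and 279. Differences were 0.19 at Zfp462, 0.18 at Zfp335, 0.26 at Zfp503 and 0.23 at Zfp703, and 0.0058 at Zfp281, a factor of pluripotent cells, and 0.0074 at Zfp207, a spindle protein. These 6, Zfp143, Zfp36 and the narrower Zfp148 peak were below 0 on the values as deposited. Zfp217 had -0.21, which was -0.40 without old replicate 1 and -0.0046 without old replicate 2.

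Of the KRAB proteins with known targets, Zfp57, which keeps the methylation of imprinted genes, had scaled values of 70.6 and 60.1 in old against 79.9 and 82.4 in young. Both old samples were lower, with a log2 difference of -0.31 (SE 0.19, limma adjusted p = 0.426), or -0.19 without old replicate 2. Zfp809, which silences murine leukaemia virus sequences, had 102 and 132 against 116 and 139, and Zfp568, which represses a transcript of Igf2, had 172 and 201 against 214 and 189. The ages overlapped at both, and the log2 differences were -0.13 and -0.11.

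The genes of the KRAB co-repressor pathway were read in the same way. All 22 listed genes had a promoter peak, 27 peaks in all. The limma test called 0 of the 27 at an adjusted p under 0.01, 2 had an unadjusted p under 0.05 (7.41%, against 16.4% of all peaks), and the lowest adjusted p was 0.223. The median log2 difference was -0.055, with 18 peaks below 0 and 7 with both old samples below both young ones (25.9%, background 24.2%), beside a median of 0.0011 over all peaks. Trim28, the co-repressor bound by KRAB domains, had scaled values of 239 and 208 in old and 251 and 234 in young (-0.12, SE 0.14). Setdb1, a histone H3 methyltransferase, had 24.0 and 30.0 in old and 24.4 and 21.6 in young (0.22, SE 0.24). The values of both genes overlapped between the ages. The lowest and highest differences were at a peak of Atf7ip, the partner of Setdb1 (-0.53), and at Cbx1, which encodes an HP1 protein (0.32).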

How the data were processed

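ATAC-seq values of 2 old and 2 young MSC samples were taken from the table deposited by the authors, which gives a score per peak and sample that they named RPKM. The values were whole multiples of 1 step in each sample and were not divided by peak width. Per the labels, the processing used Bowtie2, Picard and the mm10 build. The study's methods describe mapping, duplicate removal and chromstaR peaks for hypoxia- and normoxia-cultured cells, and whether the same steps made these values is not given in the sources used here.

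Values were divided by RLE factors (between 0.817 and 1.15), and log2(value + 1) was tested with limma 3.58.1 (R 4.3.3, eBayes with trend and robust moderation), adjusted over all peaks at 0.01. In simulated counts for the 117282 peaks, 200 of them changed, the step was tested for the recovery of known changes. Recovery was required only for changes larger than that of any Zfp peak. The simulation therefore does not show that changes of the size seen in the family would be called. Medians were compared between ages with exact two-sided permutation tests over samples. Starts, clusters, C2H2 fingers and KRAB matches came from GENCODE vM21 on GRCm38, and a missing KRAB match does not show that the domain is absent. Summaries used Python 3.11.15, pandas 2.3.3 and numpy 2.4.6, and figures matplotlib 3.10.9. Peaks named in the text were the called ones, the 6 with the lowest p in each class, the 3 most and least open, the extremes of the 5 largest clusters and a list of genes with known roles. The clusters from Zfp954 to Zfp772 and from Zfp553 to Zfp689, and Zfp600, Zfp978, Zfp982 and Zfp993, were named after values were seen. The members and lists were chosen with earlier results of these data known. Sequences were read from the GRCm38.p6 assembly.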

Additional observations from a re-analysis of the deposited data

How the results depend on the processing

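Leaving out each sample, other scalings, pseudocounts, filters and definitions kept the medians of all, clustered and isolated Zfp peaks below 0 in all 52 alternatives, and 137 of 159 summary values stayed within the spread between replicates or within 1.5 times the count. This tally cannot show that the contrasts between classes held. The spread was 0.061 for clustered minus isolated (-0.048) and 0.089 for KRAB minus no KRAB match (-0.055). A fall of either contrast to 0 would thus count as staying within the spread. Without 1 sample, the counts called lower ranged from 0 to 39 and those called higher from 0 to 16, both highest without old replicate 1, when 5.52% of all peaks were called lower and 3.31% higher. In these fits the lone sample of a group is assumed to vary like the others, so a peak passing in them is not read as a call. At Zfp36 the direction turned with the sample left out, with a log2 difference of 0.28 without old replicate 1 and -0.23 without old replicate 2. Without 1 sample, the median of all Zfp peaks ranged from -0.17 to -0.11. That of clustered peaks ranged from -0.22 to -0.12 and that of isolated peaks from -0.10 to -0.059. Clustered minus isolated ranged from -0.16 to -0.028, Zfp minus other promoters from -0.21 to -0.041 and KRAB minus no KRAB match from -0.17 to -0.0052. The comparison by KRAB match and the one with other promoters at the middle Zfp levels were added after the data were seen.

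Zfp811 was the 1 peak called lower on the values as deposited, at a false discovery rate of 0.05, with a replicate block and with a replicate block with GC and width correction. It is 0.295% of members, while 1.14%, 0.771%, 0.773% and 0.976% of all peaks were called lower in the same order. Deviations of samples with the same number correlated at r = -0.10 across peaks, which shows no positive sharing between them, and shared handling was not tested otherwise. On the values as deposited, the medians were -0.41 (all), -0.44 (clustered) and -0.39 (isolated). Quantile normalization gave -0.089 (all) and -0.073 (isolated), an equal summed value -0.081 (isolated), and the correction for GC content and width -0.18 (all) and -0.17 (isolated). Clustered minus isolated came to -0.0034 under this correction. The cause of these shifts was not tested.

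Of the 39 named peaks, 10 changed sign with a scaling. On the values as deposited these were Zfp703 (-0.059), Zfp503 (-0.027), Zfp462 (-0.095), Zfp335 (-0.11), the 1800 bp peak of Zfp148 (-0.045), Zfp143 (-0.18), Zfp36 (-0.26), Zfp207 (-0.28), Zfp281 (-0.28) and Zfp947 (-0.22), and Zfp36 also with quantile normalization (-0.098). Without 1 sample, 15 changed sign. Their ranges were -0.0070 to 0.54 for Zfp503, -0.47 to 0.059 for Zfp467, -0.068 to 0.46 for Zfp462, -0.098 to 0.46 for Zfp335, -0.23 to 0.70 for Zfp148, -0.30 to 0.048 for Zfp809, -0.21 to 0.0012 for Zfp568, -0.11 to 0.34 for Zfp143, -0.18 to 0.072 for Zfp521, -0.23 to 0.28 for Zfp36, -0.31 to 0.33 for Zfp207, -0.057 to 0.075 for Zfp281, -0.90 to 0.037 for Zfp456, -0.13 to 0.25 for Zfp947 and -0.20 to 0.072 for Zfp94. With 2 samples a group, an exact test over samples cannot pass 0.05.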
